A study of Mus musculus with 2 samples.

Results

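The chemokine ligand genes were followed here across the cell types of the mouse trigeminal ganglion (TG), the sensory ganglion of the face. Members were all symbols in the deposited gene lists that read Ccl or Cxcl with a number and at most 1 letter, together with Cx3cl1 and Xcl1. This rule found 38 of 39098 genes, of which 35 had counts in control cells and 34 in CFA cells. Chemokines are small secreted proteins that steer leukocytes by binding to G protein-coupled receptors. Inflammatory members are made on demand, often downstream of interferon or NF-kB signalling, while homeostatic members such as Cxcl12 are made steadily by stromal and endothelial cells. In sensory ganglia several of them have been studied as signals between neurons, satellite glia and macrophages in pain.

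The study dissociated right TGs of male C57BL/6 mice aged 5 to 8 weeks and made single-cell libraries on the BD Rhapsody platform. The CFA library came from mice injected with 20 µL of complete Freund's adjuvant (CFA) into the right vibrissal pad, 7 days before. The control sample is called untreated in its label, and the study's text describes a saline injection. Each condition is 1 library, and how many mice each holds is not given, so the values below have no replicate error. Intervals in parentheses are 95% intervals that cover counting error only, and no test between the conditions was possible.

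The control library held 7298 cells and the CFA library 4080, of which 6695 and 3661 were kept, with 48233077 and 21658155 unique molecular identifiers (UMIs, each counting 1 captured RNA molecule). Members took 29251 control UMIs (0.0606%) and 10704 CFA UMIs (0.0494%). Levels are given as CPM, the UMIs of a gene per 1000000 UMIs, summed over all cells of a class. Cell types were rebuilt by clustering without chemokine ligands and receptors and named from marker genes, so names carry "-like" within immune cells and may differ from the study's. All 8 markers of endothelial cells (ECs) and of mural cells, 10 of 10 neuron markers and 7 of 8 macrophage markers were highest in their own class in both libraries, but only 3 of 7 non-myelinating Schwann cell (SC) markers and 3 of 6 satellite glial cell (SGC) markers were, so the border between those glia is uncertain. Mast cells got no class of their own. In control, the mast cell markers Tpsb2 and Cma1 were highest in T or NK lymphocyte-like cells, at 417 and 247 CPM, and Cpa3 and Mcpt4 in unnamed immune cells. In CFA, Cpa3, Tpsb2, Cma1 and Mcpt4 were all highest in T or NK lymphocyte-like cells, so that class may hold mast cells as well. The 2 libraries shared 22 barcodes among kept cells, 4 of them in the same class. A doublet caller marked 0.0274% of control and 0.123% of CFA cells, a share so low that it cannot be taken to have worked, and no cell was removed as a doublet.

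3 clusters were led by interferon-induced genes: a glial cluster of 359 control and 15 CFA cells led by Gbp6 and Gbp2 (interferon-led glia below), a macrophage-like cluster of 34 control and 0 CFA cells led by Ly6i, and a neuron cluster of 29 and 15 cells led by Gbp4. The glial and macrophage-like ones came almost wholly from the control library and may each be a feature of that library and not a type of cell. In the neuron cluster the interferon-induced genes listed below summed to 8009 CPM in control and 702 in CFA. The CFA value lay near the 720 CPM of CFA cells in the largest cluster of PEP1 neurons (described below). The 15 CFA cells were thus not high in these genes. Where a comparison without these clusters, chosen after seeing the data, is given, the value follows the one with them.

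31 of the 38 members had at least 10 UMIs over both libraries. Ccl20, Ccl21b, Ccl21d and Ccl26 had 1 UMI each, Cxcl15 and Cxcl17 had 2 each and Cxcl5 had 7, and nothing more is said of their levels. Members cluster in the genome as well as in function. In GRCm38 coordinates, 12 lie on chromosome 11 and 11 on chromosome 5. Cxcl9, Cxcl10 and Cxcl11, the ligands of CXCR3, span 44.1 kb at chr5:92321347-92365485. Ccl3, Ccl4 and Ccl5 span 138.9 kb at chr11:83525778-83664683, and Ccl2, Ccl7, Ccl11, Ccl12, Ccl8 and Ccl1 span 270.1 kb at chr11:82035571-82305690. The last span includes a long annotated form of Ccl1 (82176657-82305690). RefSeq places the 250 bases before the Ccl1 start at chr11:82179813-82180062, so this span depends on the annotation.

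Upstream sequences of 3 members are shown because their levels differed most plainly in pattern: Cxcl10 and Cxcl9 were lower in the CFA library, and Cxcl2 was at like levels in macrophages of both. Each line gives the 250 bases before the transcription start, 5′ to 3′ on the gene's strand, from RefSeq on GRCm38.p6, with capitals for matches to the interferon-stimulated response element core (ISRE core: GAAA, then any 2 bases, then GAAA) and to an NF-kB motif (GGG, any 2 bases, TT, any base, CC). Cxcl10 lies on the minus strand (chr5:92348890-92349139), as does Cxcl9 (chr5:92328080-92328329), and Cxcl2 on the plus strand (chr5:90903649-90903898).
Cxcl10: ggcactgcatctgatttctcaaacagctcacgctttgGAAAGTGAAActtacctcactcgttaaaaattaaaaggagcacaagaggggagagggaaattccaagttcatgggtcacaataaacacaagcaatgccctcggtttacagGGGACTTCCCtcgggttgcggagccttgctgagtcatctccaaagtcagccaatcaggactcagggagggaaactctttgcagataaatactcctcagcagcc
Cxcl9: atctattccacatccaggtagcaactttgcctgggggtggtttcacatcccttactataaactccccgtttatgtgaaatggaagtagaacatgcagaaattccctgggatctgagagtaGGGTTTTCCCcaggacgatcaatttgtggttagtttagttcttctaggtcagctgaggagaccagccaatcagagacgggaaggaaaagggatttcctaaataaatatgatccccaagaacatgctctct
Cxcl2: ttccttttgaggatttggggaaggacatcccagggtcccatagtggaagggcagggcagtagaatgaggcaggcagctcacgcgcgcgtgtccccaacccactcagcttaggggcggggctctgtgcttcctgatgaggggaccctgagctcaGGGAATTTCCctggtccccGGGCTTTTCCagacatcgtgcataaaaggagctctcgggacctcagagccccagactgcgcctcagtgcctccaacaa
Both strands were searched. The Cxcl10 window held an ISRE core whose first base lay 213 bases before the start and an NF-kB match at 103, Cxcl9 an NF-kB match at 130, and Cxcl2 a pair of NF-kB matches at 97 and 78, none of them overlapping. Over windows from 250 bases before to 50 after the start, the ISRE core was found in 3 of 27 member genes with an entry (Ccl19, Cxcl10 and Cxcl14), against 3.44% of all 32851 promoters. The NF-kB motif was found in 8 (Ccl19, Ccl20, Ccl9, Cxcl1, Cxcl10, Cxcl2, Cxcl3 and Cxcl9), against 4.79% of all. The interferon gamma-activated GAS element (TTC, any 3 bases, GAA), not in capitals here, was found in Ccl17 and Cxcl14, against 8.30% of all. These are matches of letters only and were not tested for binding.

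Macrophages were the foremost source. Of the 31 members, macrophage-like cells were the highest class for 13 in control and for 10 in CFA, and 16 of the 30 with counts in both libraries had the same highest class in both. The interval of the highest class stood clear of the next class for 22 control and 14 CFA members, so for the others the order of the leading classes is not settled by these counts. Lymphocytes led for Ccl5 and Xcl1, ECs for Cxcl12 and Cx3cl1, fibroblasts (FBs) for Ccl11, and neurons for Ccl21a and Ccl27a in both libraries. Classes of under 20 cells in a library were left out of this order.

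**Figure D1:**
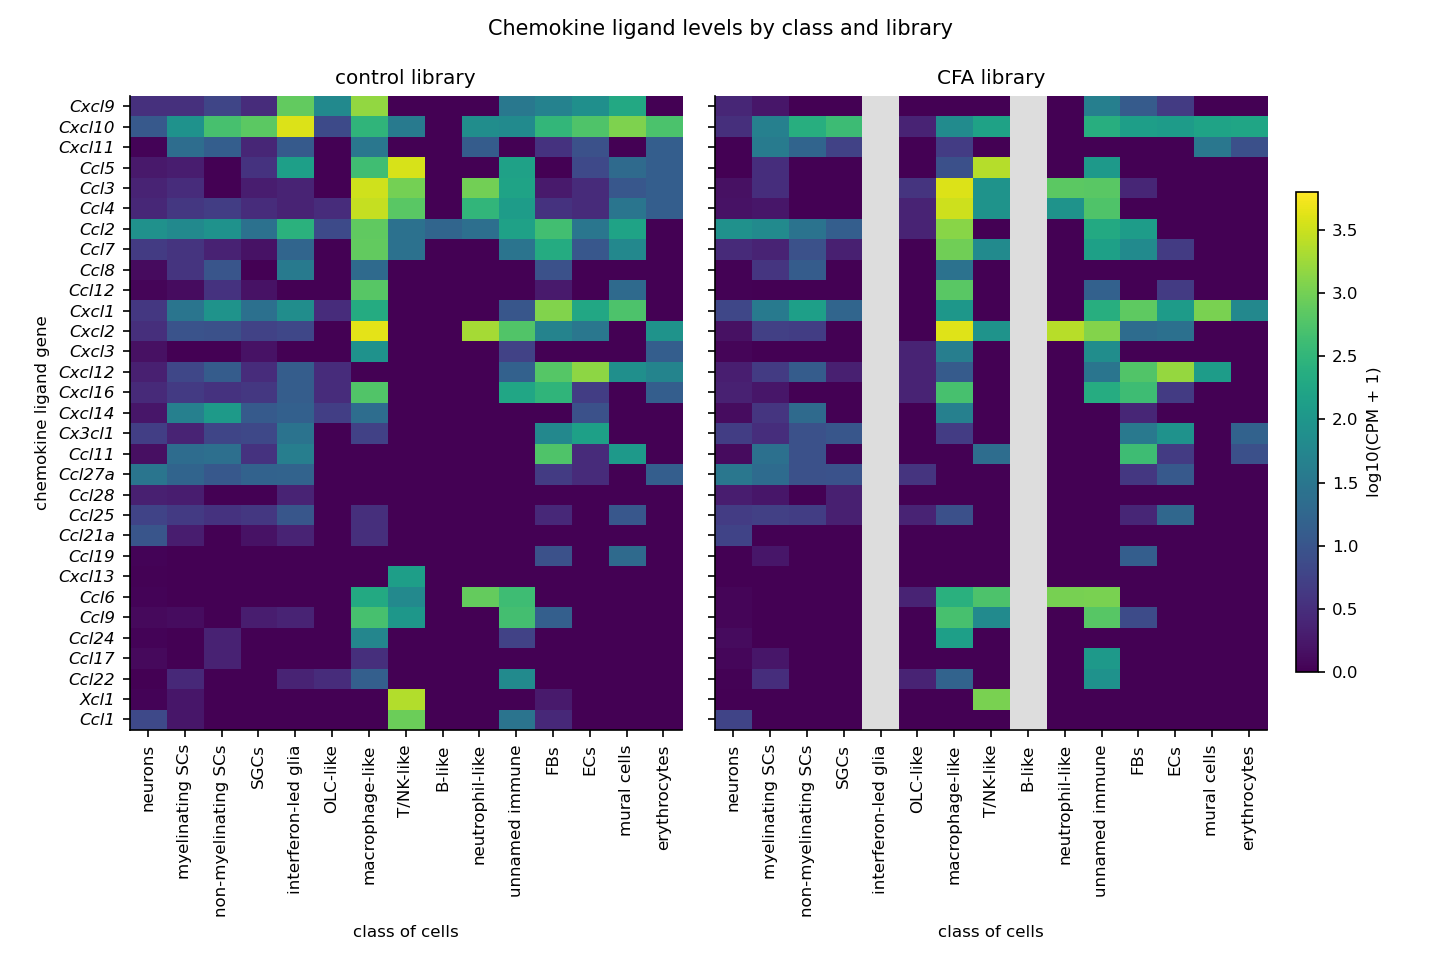
Levels of the 31 members with at least 10 UMIs (rows) by class of cells (columns) in the control and CFA libraries, as log10(CPM + 1) of summed UMIs. Grey columns mark classes of under 20 cells in that library. The macrophage-like column is bright for Ccl3, Ccl4 and Cxcl2 in both libraries, and Cxcl9 is bright there in the control library only.

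Cxcl9, Cxcl10 and Cxcl11 bind CXCR3 on activated T and NK cells. Cxcl10 was the member with most UMIs in control, 6268, but had only 714 in CFA, where Ccl2 had most at 1952. Its level over all kept cells was 130.0 CPM (127–133) in control and 33.0 CPM (30.6–35.5) in CFA, a log2 ratio (CFA over control) of -1.98 (-2.09 to -1.87). Cxcl9 was lower still, at 31.5 and 1.75 CPM with a log2 ratio of -4.17 (-4.67 to -3.70). Cxcl11 did not go with them, at 0.36 (-0.11 to 0.82), although its 175 UMIs leave a wide interval. Without the 3 interferon-led clusters the log2 ratio of Cxcl10 was -1.02 and that of Cxcl9 -1.62.

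Glia held most of the Cxcl10. In the control library it was at 3964 CPM (3821–4111) in interferon-led glia, which alone held 46.3% of its UMIs, and 198 of their 359 cells had a UMI. SGCs, the glia that wrap neuron cell bodies, were at 697 CPM (659.9–735) in control and 404 CPM (363–448) in CFA. Non-myelinating SCs were at 494 CPM (446–546) and 239 CPM (183–307). With SGCs, non-myelinating SCs and interferon-led glia summed, so that a shift of cells between them does not enter, the log2 ratio was -1.87 (-2.02 to -1.73). It was -0.79 (-0.96 to -0.62) in SGCs alone and -0.93 (-1.35 to -0.53) in myelinating SCs, so the ratio below 0 was also found in these classes. These sizes depend on where glial cells are placed, among them those of the interferon-led glia. With that cluster left out of the pooled glia the ratio was -0.80 (-0.96 to -0.65). When interferon-induced genes were left out of clustering as well, which returned most of these cells to other glia, it was -1.55 (-1.72 to -1.38) in SGCs, -1.17 (-1.46 to -0.88) in non-myelinating SCs and -2.16 (-2.63 to -1.73) in myelinating SCs. Other cells moved too: SGCs went from 929 control and 447 CFA cells to 788 and 327. Non-myelinating SCs went from 705 and 268 to 1087 and 436. These ratios thus do not reflect the interferon-led cells alone.

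Vascular and connective tissue cells shared this direction. Mural cells were at 1166 CPM (966–1395) in control and 158 CPM (51.4–369) in CFA, and ECs at 558 CPM (495–627) and 119 CPM (82.7–167). FBs were at 329 CPM (297–364) and 136 CPM (108–168), and macrophage-like cells at 304 CPM (255–359) and 67.3 CPM (39.9–106). Without the Ly6i-led cluster the ratio in macrophage-like cells was -0.27 (-1.22 to 0.64), an interval that holds 0. Of 13 classes with at least 20 cells in both libraries, Cxcl10 was lower in CFA in 11, with the interval of the ratio below 0 in 9. The 2 classes with the opposite direction, T or NK lymphocyte-like cells and the unnamed immune cells, held 7 and 17 CFA UMIs of Cxcl10, and 16 of the 17 lay in 1 cell.

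Free RNA can be captured along with a cell, and Cxcl10 was found in erythrocytes, which are not a known source of it, at 521 CPM (374–706) in control and 171 CPM (108–256) in CFA. After every cell was thinned to 500 UMIs, 9.80% (3.26 to 21.4%) of control erythrocytes had a Cxcl10 UMI (unthinned 13.5%, median depth 1087 UMIs) and 0 of 49 B lymphocyte-like cells did, which allows a share of up to 6.12%. Interferon-led glia stood above the erythrocytes at 40.7% (35.5 to 45.9%), and SGCs were at 16.5% (14.2 to 19.0%), with intervals that overlap (unthinned 55.2% and 27.7%, median depths 1648 and 1933). The thinned shares of FBs (6.17% (4.36 to 8.45%)), ECs (6.46% (3.94 to 9.91%)), macrophage-like cells (6.15% (3.22 to 10.5%)) and non-myelinating SCs (9.13% (7.10 to 11.5%)) lay at or below that of erythrocytes, so at this depth they are not told apart from background. The shares were not alike in every type, since myelinating SCs were at 2.29% (1.71 to 2.99%). In the CFA library SGCs were at 10.3% (7.67 to 13.5%) and erythrocytes at 7.29% (2.98 to 14.4%). Reads of Art3 on the other strand overlap Cxcl10 exons, and whether counting used the strand is not given.

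Cxcl9 had fewer sources, and erythrocytes held 0 of its UMIs in both libraries. Macrophage-like cells of the CFA library had 0 Cxcl9 UMIs in 151 cells. Set at a floor of 3 counts, that level was 136-fold below the control one, a value that leaves out counting error in control. Control macrophage-like cells were at 1530.0 CPM (1418–1648), with 695 UMIs in 37 of 197 cells. The Ly6i-led macrophage cluster alone was at 5325 CPM (4923–5751) and held 649 of these UMIs. Without that cluster 46 UMIs were left in control, and the CFA level at the same floor was 12.3-fold lower. The interval of that log2 ratio had an upper limit of -3.27. In macrophages led by Cd163 and Pf4, a profile of resident macrophages, it was at 255 CPM (186–342) in control with 45 UMIs and 0 in CFA. Interferon-led glia were at 773 CPM (711–839), from only 19 cells, and 1 cell gave 141 of the 566 UMIs. The 3 interferon-led clusters together held 83.8% of control Cxcl9, 51.0% of Cxcl10, 36.3% of Ccl5 and 19.8% of Cxcl11. ECs were at 76.9 CPM (54.7–105) in control and 3.51 CPM (0.0890–19.6) in CFA, FBs at 47.3 CPM (35.5–61.7) and 11.2 CPM (4.49–23.0), and mural cells at 196 CPM (119.7–303) and 0 UMIs. The CFA library held 38 Cxcl9 UMIs, 24 of them in 1 neuron.

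Cxcl11 had a source of its own among the glia. Myelinating SCs, which ensheath single axons, held 63 of 111 control and 53 of 64 CFA UMIs, at 21.6 CPM (16.6–27.7) and 37.1 CPM (27.8–48.5). These were spread over 55 and 48 cells with at most 3 UMIs each, a pattern unlike the few bright cells of Cxcl9. In control macrophage-like cells it was at 30.8 CPM (16.9–51.7), from 5 cells. The annotation lists Cxcl11 as a polymorphic pseudogene that overlaps Gm2673.

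**Figure D2:**
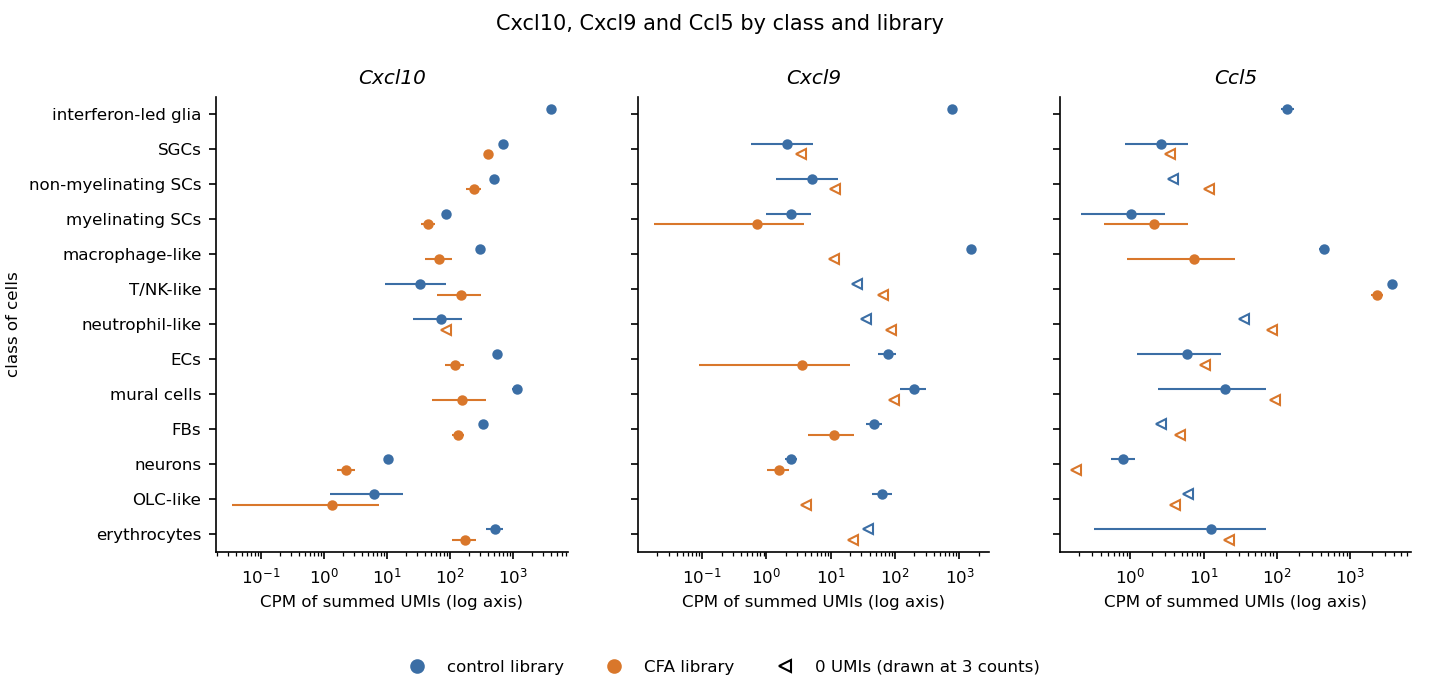
Levels of Cxcl10, Cxcl9 and Ccl5 in CPM of summed UMIs (log axis) by class of cells, control in blue and CFA in orange, with 95% Poisson intervals. Open triangles are classes with 0 UMIs, drawn at the level of 3 counts, and classes of under 20 cells in a library are not drawn. Cxcl10 spans nearly all classes, at up to 3964 CPM in interferon-led glia, while Cxcl9 exceeds 500 CPM only in control macrophage-like cells and interferon-led glia.

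The level of 28 interferon-induced genes (among them Gbp2, Irgm1 and Ifit3) was also lower in CFA over all kept cells, at 1584 and 855 CPM. Its part in the difference of Cxcl9 and Cxcl10 was not tested. Such sums can rest largely on 1 gene. In myelinating SCs the list was at 1871 and 1783 CPM, but 12 of 23 genes were lower in CFA and 0 higher. Of all genes in that class 5.47% were lower and 4.31% higher. Irf1 alone gave 703 CPM of the CFA sum there. In erythrocytes the list was at 2438 and 5115 CPM, of which Rsad2 alone gave 736 and 3741. Cxcl10 was lower in CFA in both of these classes. Summed over the list, macrophage-like cells were at 4315 CPM in control and 1044 in CFA, and the pooled SGCs, non-myelinating SCs and interferon-led glia at 7588 and 2093. SGCs alone were at 1208 and 1071, and FBs at 1890.2 and 1524. FBs that held a Cxcl10 UMI were also higher in the list. Control FBs with one were at 4019 CPM against 1361 without, and CFA FBs at 3938 against 1229. Interferon-led glia went the other way, at 24084 with a UMI against 25638 without, and CFA non-myelinating SCs were at 4467 against 4543. Cells with a UMI were deeper as well, with a median of 2345 against 1632 UMIs in control FBs. When the list was also left out of clustering, 76 of the 374 interferon-led glia still clustered apart, 142 joined non-myelinating SCs, 109 SGCs and 47 myelinating SCs. Ifng, which encodes interferon gamma, had 48 control UMIs, 38 of them in T or NK lymphocyte-like cells, and 5 CFA UMIs, 4 of them there.

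Ccl3 and Ccl4, inflammatory chemokines first known from macrophages, were macrophage ligands here as well, in both libraries: macrophage-like cells held 83.3% of control and 92.2% of CFA Ccl3, and 85.9% and 93.5% of Ccl4. Ccl3 was at 3313 CPM (3148–3485) in control and 3931 CPM (3697–4176) in CFA, with a UMI in 125 of 197 and 113 of 151 cells. Ccl4 was at 2972 CPM (2816–3135) and 3228 CPM (3016–3451). Their log2 ratios were 0.25 (0.13 to 0.36) and 0.12 (-0.01 to 0.24), and both turned below 0, to -0.17 and -0.30, without the Ly6i-led cluster, so no direction can be given. After thinning, 48.2% (41.0 to 55.5%) of control and 57.6% (49.3 to 65.6%) of CFA macrophage-like cells had a Ccl3 UMI (unthinned 63.5% and 74.8%, median depths 2023 and 1603), intervals that overlap. Erythrocytes held 1 and 0 Ccl3 UMIs, and glia, FBs, ECs and neurons each stayed below 3 CPM of Ccl3 in both libraries.

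Macrophages were not alike in these ligands. The P2ry12- and Tmem119-led cluster, which carries genes best known from microglia, was highest for Ccl3 in both libraries, at 6684 CPM (6119–7287) and 4926 CPM (4492–5392), and for Ccl4 at 6372 CPM (5821–6962) and 4226 CPM (3824–4659). The Cd163-led cluster was at 3279.8 and 3391 CPM of Ccl3, and the Ly6i-led cluster, found in the control library alone, only at 287 CPM (200.01–399). Within clusters that both libraries held, the log2 ratio of Ccl3 was -0.44 (-0.62 to -0.26) in the P2ry12-led, 0.05 (-0.16 to 0.26) in the Cd163-led and -0.50 (-0.73 to -0.28) in the Apoe- and Egr1-led cluster. Ccl3 thus lay near its control level in the Cd163-led cluster and below it in the other 2. Outside macrophages, neutrophil-like cells were at 963 CPM (764–1196) and 698 CPM (447–1038). Ccl4 there was at 321 CPM (211–467) and 87.2 CPM (18.0–255). T or NK lymphocyte-like cells were at 1012 CPM (838–1211) of Ccl3 in control, but 95 of these 119 UMIs came from 1 cell.

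Ccl5, a chemokine of activated T and NK cells, was a lymphocyte ligand. T or NK lymphocyte-like cells were at 3775 CPM (3432–4143) in control, from 444 UMIs in 37 of 59 cells, and at 2353 CPM (1929.9–2840.4) in CFA, from 108 UMIs in 12 of 30 cells. The NK-like cluster led by Gzma and Klra9 was at 7297 CPM (6503–8160.4) in control (21 cells) and 9327 CPM (7285–11765) in CFA (4 cells), and the T-like cluster at 1813 CPM (1522–2144) and 966 CPM (680.3–1332). The log2 ratio was 0.35 (-0.04 to 0.73) in the NK-like and -0.91 (-1.47 to -0.38) in the T-like cluster. Macrophage-like cells were at 436 CPM (377–501) in control and held 2 UMIs in CFA, and 196 of the 198 control UMIs lay in the Ly6i-led cluster. Over all kept cells the log2 ratio of Ccl5 was -1.595 (-1.88 to -1.32), and -0.98 without the interferon-led clusters.

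**Figure D3:**
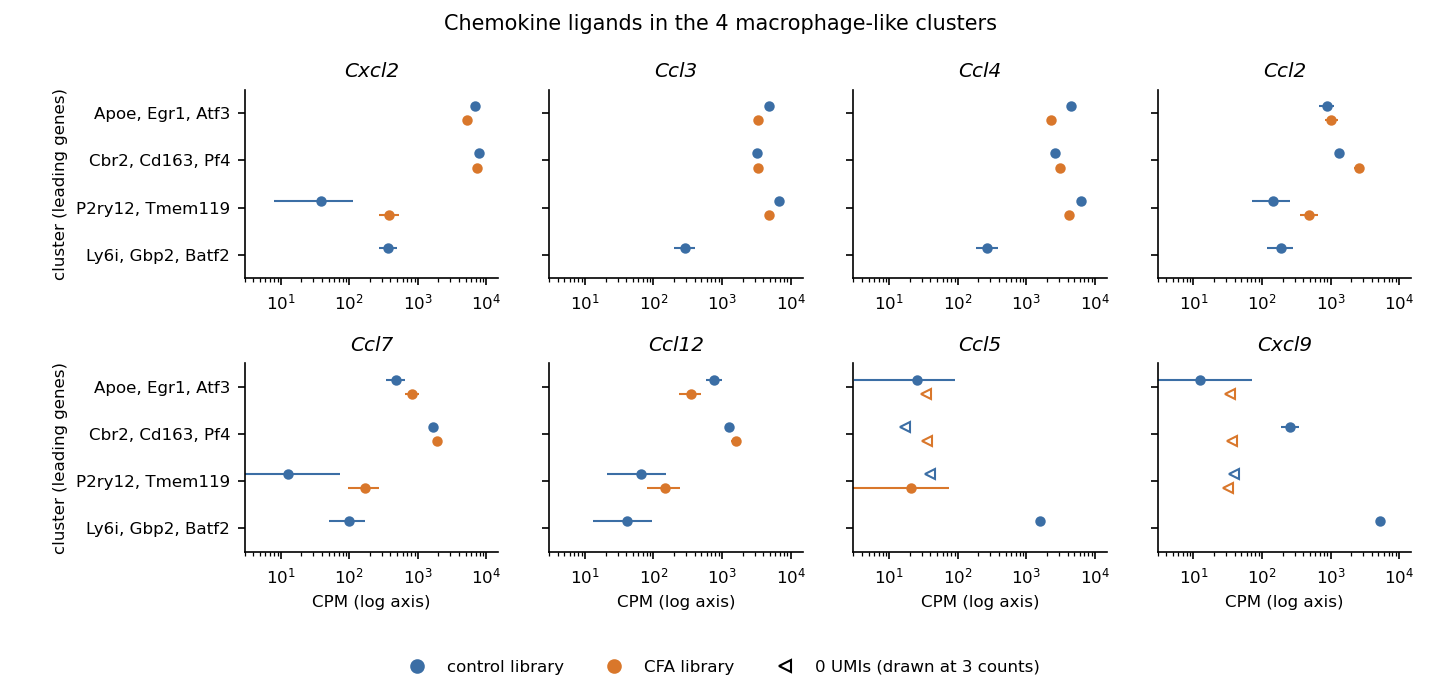
Levels of 8 members in the 4 macrophage-like clusters, named by leading genes, in CPM (log axis) with 95% Poisson intervals, control in blue and CFA in orange. Open triangles mark 0 UMIs, drawn at 3 counts, and the Ly6i-led cluster has no CFA cells. Cxcl9 and Ccl5 sit in the Ly6i-led cluster, at 5325 and 1608 CPM, where Ccl3 and Ccl4 are at 287 and 271.

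Ccl2, Ccl7, Ccl8 and Ccl12 bind CCR2 and recruit monocytes. Over all kept cells Ccl2 differed little, at 95.1 CPM (92.3–97.9) in control and 90.1 CPM (86.2–94.2) in CFA, while classes went in opposite directions. Macrophage-like cells were at 744 CPM (667–828) and 1317 CPM (1183–1462), a log2 ratio of 0.82 (0.60 to 1.04), which was 0.47 without the Ly6i-led cluster. FBs were at 439 CPM (402–479) and 124 CPM (98.3–155), a ratio of -1.82 (-2.18 to -1.47). Pooled SGCs, non-myelinating SCs and interferon-led glia were at 89.6 CPM (79.8–100.1) and 17.5 CPM (10.7–27.0), a ratio of -2.36 (-3.09 to -1.71), with 193 of their 308 control UMIs in interferon-led glia. Without that cluster the glial ratio was -1.41 (-2.21 to -0.68). Among macrophages the Cd163-led cluster was highest, at 1333 CPM (1168–1515) and 2564 CPM (2232–2931).

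Most Ccl2 UMIs, however, lay in neurons, which are many times deeper than other cells. Neurons held 69.3% of control and 71.5% of CFA Ccl2, at 82.4 CPM (79.5–85.3) and 83.1 CPM (78.8–87.6). Within neurons 92.4% and 95.1% of it lay in PEP1 neurons, the peptidergic nociceptors marked by Tac1 and Calca, at 189.9 CPM (183–197) and 174 CPM (165–184). The other subtypes were below 25 CPM, NP1 neurons for instance at 10.6 CPM (8.83–12.7) and 6.76 CPM (4.46–9.84). After thinning to 5000 UMIs, 41.8% (36.9 to 46.9%) of control and 38.6% (32.1 to 45.3%) of CFA PEP1 neurons had a Ccl2 UMI, against 2.14% (0.586 to 5.39%) and 1.49% (0.0378 to 8.04%) of NP1 neurons. The log2 ratio in PEP1 was -0.13 (-0.22 to -0.03), a small difference in counts.

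Ccl7 went with Ccl2 in place. It was at 759.5 CPM (681–844) and 939 CPM (826–1062) in macrophage-like cells and at 217 CPM (191–246) and 65.4 CPM (46.9–88.7) in FBs, with log2 ratios of 0.31 (0.07 to 0.54) and -1.73 (-2.25 to -1.25). Without the Ly6i-led cluster the pooled Ccl7 ratio in macrophage-like cells was -0.09 (-0.34 to 0.15). Within clusters that both libraries held, it was 0.78 (0.20 to 1.39) in the Apoe- and Egr1-led and 0.22 (-0.07 to 0.50) in the Cd163-led cluster. In the P2ry12-led cluster it was 3.69 (1.00 to 9.08), from 1 control and 16 CFA UMIs. These lay above 0 while the pooled ratio did not, so no direction can be given for the pooled class. In PEP1 neurons, which held 124 of its control UMIs and 28 of its CFA UMIs, the ratio was -1.13 (-1.77 to -0.53). Ccl12 was the most macrophage-bound member, with 96.1% and 98.3% of its UMIs there, at 649 CPM (577–728) and 666 CPM (572–771). Its ratio of 0.04 (-0.24 to 0.31) became -0.39 without the Ly6i-led cluster, so no direction can be given. Within macrophages Ccl12 and Ccl7 were highest in the Cd163-led cluster, at 1271 CPM (1110.0–1449) and 1668 CPM (1483–1870.3) in control and 1593 CPM (1334–1888) and 1941 CPM (1654–2264) in CFA. The other Ccl12 UMIs, 12 in control and 3 in CFA, lay in no class with more than 5. Ccl8 had 70 control and 15 CFA UMIs and was highest in interferon-led glia in control, at 35.5 CPM (23.2–52.0), and in macrophage-like cells in CFA, at 26.2 CPM (10.5–53.9).

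Cxcl1, Cxcl2 and Cxcl3 bind CXCR2 and draw neutrophils. Cxcl2 was at 4344 CPM (4154–4539.6) and 4155 CPM (3915–4407) in macrophage-like cells, which held 79.8% and 83.9% of it, and at 1961 CPM (1673–2284) and 2442 CPM (1948–3023) in neutrophil-like cells. The log2 ratio in macrophage-like cells was -0.06 (-0.17 to 0.04), and -0.48 without the Ly6i-led cluster. Its place among macrophages was the reverse of that of Ccl3: the Cd163-led cluster was at 7899 CPM (7489–8325) and 7392 CPM (6820.3–7999), and the P2ry12-led cluster only at 38.9 CPM (8.03–114) in control and 387 CPM (272–533) in CFA. Cxcl3 followed at lower counts, at 85.9 CPM (61.1–117) and 41.1 CPM (20.5–73.6) in macrophage-like cells.

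Cxcl1 was found elsewhere. FBs held 68.3% of control and 58.7% of CFA Cxcl1, at 1183 CPM (1121–1248) and 713 CPM (648–782). Mural cells, the contractile cells around vessels, were at 549 CPM (414–712) and 1075 CPM (745–1503), and ECs at 191 CPM (155–233) and 119 CPM (82.7–167). Directions were mixed: the log2 ratio was -0.73 (-0.89 to -0.58) in FBs, -0.68 (-1.29 to -0.10) in ECs and -1.11 (-1.78 to -0.48) in macrophage-like cells, but 0.97 (0.31 to 1.61) in mural cells and 0.85 (0.44 to 1.25) in neurons. The neuronal UMIs lay mainly in PEP1 neurons, 78 from 29 control cells and 93 from 20 CFA cells, at a ratio of 1.27 (0.82 to 1.73), with 23 of the 93 in 1 cell. Of the other subtypes, NP1 neurons had 15 control UMIs, NF neurons 14, NP2 neurons 8 and cLTMR neurons 4, and all 4 had 0 in CFA. The ratio lay below 0 in NP1 and NF neurons, with upper limits of -0.29 and -0.62. In NP2 and cLTMR neurons the upper limits were 1.23 and 1.46, so no direction can be given there.

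Stromal cells held a further set of ligands. Cxcl12, which binds CXCR4 and retains leukocytes and progenitors, was at 1429 CPM (1327–1537) and 1560.2 CPM (1418–1712) in ECs and 622 CPM (577–669.6) and 579 CPM (521–641) in FBs. The log2 ratios were 0.13 (-0.05 to 0.30) and -0.10 (-0.29 to 0.08), both intervals holding 0. Thinned shares of ECs with a UMI were 39.8% (34.2 to 45.6%) and 47.2% (39.4 to 55.2%) (unthinned 60.9% and 69.9%). Ccl11, the eosinophil ligand eotaxin, was a fibroblast gene, with 81.7% and 85.2% of its UMIs there at 560.1 CPM (517–605) and 414 CPM (366–468), a ratio of -0.43 (-0.65 to -0.22). Cxcl16, a membrane-bound ligand of CXCR6, was at 307 CPM (276–341) and 409.7 CPM (361–463) in FBs and 577 CPM (509–651) and 490.0 CPM (409.7–581) in macrophage-like cells, at ratios of 0.42 (0.18 to 0.65) and -0.24 (-0.55 to 0.07). Ccl19, a CCR7 ligand, had 14 control and 9 CFA UMIs and was at 7.88 CPM (3.60–15.0) and 12.8 CPM (5.51–25.1) in FBs.

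Cxcl14, best known as a chemokine of epithelia, was lower in Schwann cells of the CFA library. Non-myelinating SCs were at 118 CPM (95.4–145) in control, from 92 UMIs in 32 of 705 cells, and at 19.6 CPM (6.36–45.7) in CFA, from 5 UMIs in 2 of 268 cells. Myelinating SCs were at 44.0 CPM (36.7–52.3) and 2.80 CPM (0.763–7.17), from 128 UMIs in 55 cells and 4 UMIs in 1 cell. The log2 ratios were -2.59 (-4.25 to -1.32) and -3.97 (-5.87 to -2.58), and the UMIs lay in few cells of either class. The ratio over all kept cells, -2.19 (-2.80 to -1.64), was -2.17 without the interferon-led clusters, so it does not rest on them. Macrophage-like cells had 10 and 12 UMIs.

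Neurons had members of their own. Ccl27a, a ligand of CCR10 best known from skin, had 91.9% and 92.0% of its UMIs in neurons, at 29.3 CPM (27.7–31.1) and 31.6 CPM (29.0–34.5), a log2 ratio of 0.11 (-0.04 to 0.26). PEP1 neurons were at 38.7 CPM (35.6–41.9) and 39.1 CPM (34.8–43.8), NF neurons (mostly a Trpm8-led cluster, with a smaller one led by Calb1 and Spp1) at 39.4 CPM (32.9–46.7) and 39.6 CPM (30.3–50.9), and NP1 neurons lower at 18.7 CPM (16.3–21.4) and 19.8 CPM (15.7–24.7). Its exons overlap those of Il11ra1 on the other strand, so its counts may in part belong to that gene. Ccl25, a CCR9 ligand with 85.5% of control and 79.0% of CFA UMIs in neurons, shares exonic sequence with Elavl1 in the same way.

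Ccl21a, a CCR7 ligand, was all but confined to PEP1 neurons, which held 98.3% and 98.8% of its neuronal UMIs. It was at 22.3 CPM (20.0–24.8) in control and 10.6 CPM (8.44–13.2) in CFA, a log2 ratio of -1.07 (-1.44 to -0.72), with a UMI in 109 of 398 and 50 of 232 cells. At a common depth of 5000 UMIs the shares were 7.65% (5.22 to 10.7%) and 4.48% (2.17 to 8.09%), which overlap. Ccl21b and Ccl21d are near-identical copies, so which copy was read is uncertain. Ccl1, a CCR8 ligand, marked cLTMR neurons, the C-fibre low-threshold mechanoreceptors, with 75.7% and 73.5% of its neuronal UMIs, at 44.1 CPM (37.8–51.2) and 28.1 CPM (21.5–36.1), a ratio of -0.65 (-1.09 to -0.22). A single control cell of the T or NK lymphocyte-like class held another 104 Ccl1 UMIs, which sets the level of that class. Mast cell markers were also found in that class, so the type of this cell is not settled.

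Cx3cl1, the transmembrane ligand of CX3CR1, was shared between ECs, FBs and neurons. It was at 144 CPM (113–181) and 84.3 CPM (54.0–125) in ECs, a log2 ratio of -0.77 (-1.50 to -0.09), and at 58.6 CPM (45.4–74.5) and 33.5 CPM (20.7–51.2) in FBs. Among neurons PEP1 held most, at 7.50 CPM (6.20–8.998) and 5.38 CPM (3.86–7.29), and NF neurons were at 9.01 CPM (6.08–12.9) and 14.3 CPM (8.96–21.6), while NP1 neurons had 1 UMI in control and 0 in CFA. Ccl28, a mucosal ligand, had 50 control and 19 CFA UMIs and was at 1.19 CPM (0.873–1.59) and 1.01 CPM (0.590–1.62) in neurons, with 1 UMI in the class that came out highest in each library.

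**Figure D4:**
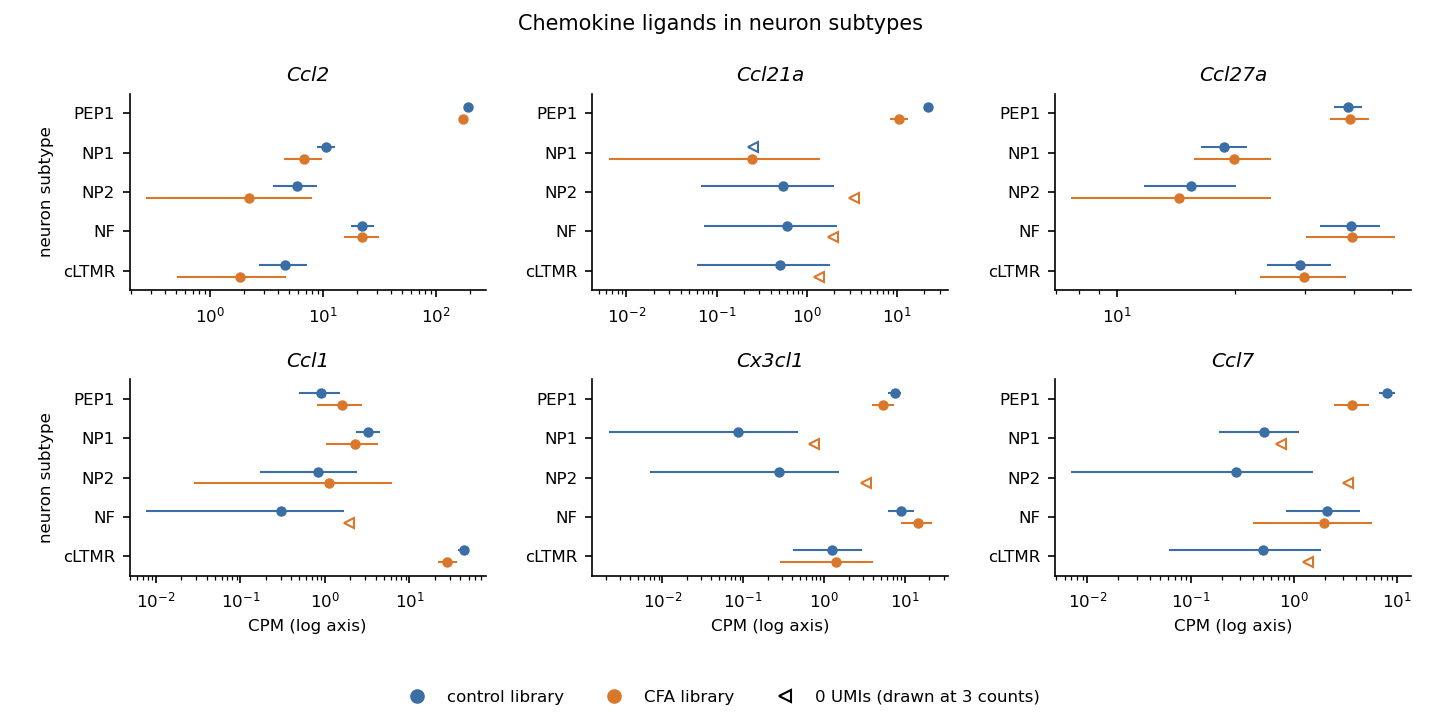
Levels of 6 members in 5 neuron subtypes, in CPM (log axis, scaled for each gene) with 95% Poisson intervals, control in blue and CFA in orange. Open triangles mark 0 UMIs, drawn at 3 counts, and the NP2 CFA values rest on 16 cells. Ccl2, Ccl21a and Ccl7 stand out in PEP1 neurons and Ccl1 in cLTMR neurons, in both libraries.

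Interferon-induced ligands were scarce in neurons. Neuronal Cxcl10 was at 10.5 CPM (9.50–11.6) in control and 2.26 CPM (1.603–3.11) in CFA, a log2 ratio of -2.21 (-2.73 to -1.73). PEP1 neurons held 310 of the 405 control UMIs, and the Gbp4-led cluster of 29 cells alone 181, with 71 in 1 cell. After thinning to 500 UMIs, 1.24% (0.594 to 2.26%) of control neurons had a Cxcl10 UMI, a share below that of erythrocytes. Control neurons with a Cxcl10 UMI were at 1480.4 CPM of the interferon-induced list against 739 in the others. Without the Gbp4-led cluster the neuronal ratio of Cxcl10 was -1.57 (-2.14 to -1.04).

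The remaining myeloid and lymphoid members had narrow sources. Ccl6 was at 808 CPM (628–1025) and 1047 CPM (733–1449) in neutrophil-like cells, and Ccl9, like Ccl6 a CCR1 ligand, at 491 CPM (429–559.8) and 497 CPM (417–589.5) in macrophage-like cells. Both were also found in an unnamed immune cluster led by Alcam, S100a4 and Napsa (49 control and 24 CFA cells), at 524 CPM (418–648) and 1179 CPM (929–1476) for Ccl6. In that cluster Ccl3 was at 74.8 CPM (38.6–131) and 683 CPM (496–917), a log2 ratio of 3.19 (2.24 to 4.25). Ccl24, an eosinophil ligand made by alternatively activated macrophages, had 25 of 30 control and 37 of 42 CFA UMIs in macrophage-like cells, at 55.0 CPM (35.6–81.2) and 138 CPM (97.4–191), a ratio of 1.33 (0.56 to 2.12). Ccl17 and Ccl22, both CCR4 ligands of dendritic cells, were highest in the unnamed immune cells of the CFA library, at 114 CPM (49.2–225) from 8 UMIs and 85.5 CPM (31.4–186) from 6, and Ccl22 was at 65.5 CPM (35.8–109.9) in those of the control library. Xcl1, the XCR1 ligand of T and NK cells, was at 2295 CPM (2029.8–2586) and 1067 CPM (789.6–1411) in T or NK lymphocyte-like cells, which held 270 of 276 control and 49 of 49 CFA UMIs, but 1 control cell gave 188 of them. The NK-like cluster was at 1188 CPM in control and 3809.8 in CFA, a log2 ratio of 1.68 (0.97 to 2.37), and the T-like cluster at 2912 and 522, a ratio of -2.48 (-3.22 to -1.82). The cell with 188 UMIs lay in the T-like cluster, which held 220 control UMIs, so that ratio rests mostly on 1 cell. The NK-like CFA value rests on 29 UMIs in 4 cells. No direction is therefore read for either cluster. Cxcl13, a B cell ligand, had 18 control UMIs, 16 of them in 1 cell of the T or NK lymphocyte-like class, and 0 CFA UMIs. In the annotation Xcl1 overlaps Gm20743 and Cxcl16 overlaps Zmynd15, so some of their counts are uncertain too.

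Counted by a fold of 2 with at least 10 UMIs over both libraries, 7 of 31 members were lower in CFA over all kept cells (Ccl5, Ccl8, Cxcl10, Cxcl13, Cxcl14, Cxcl9 and Xcl1), against 4.10% of all 22051 genes counted this way, and 2 were higher (Ccl17 and Ccl24), against 5.90%. Some of these calls rest on 1 cell. With each member counted without the cell that held most of its UMIs, a comparison chosen after seeing the data, 4 of 30 were lower (Ccl5, Cxcl10, Cxcl14 and Cxcl9) and 1 was higher (Ccl24). Xcl1, without the control cell with 188 of its 276 UMIs, was then at 0.31 (-0.22 to 0.83), and Cxcl13, without the control cell with 16 of its 18, was left with 2 UMIs. Ccl8 was at -0.89 (-1.81 to -0.06) and Ccl17, without 7 of its 12 CFA UMIs, at 0.02 (-1.86 to 1.66). Without the interferon-led clusters 5 of 31 members were lower over all kept cells (Cxcl10, Cxcl13, Cxcl14, Cxcl9 and Xcl1) and 2 higher (Ccl17 and Ccl24). With these clusters, the median log2 ratio of the members was -0.05 and that of all genes 0.03. In macrophage-like cells 6 of 19 were lower (Ccl5, Cxcl1, Cxcl10, Cxcl11, Cxcl3 and Cxcl9) against 15.3% of all genes, and 2 higher (Ccl24 and Cxcl14) against 7.02%. Without the Ly6i-led cluster 3 of 16 were lower there (Cxcl1, Cxcl3 and Cxcl9) and 0 higher. In pooled SGCs, non-myelinating SCs and interferon-led glia 9 of 16 were lower (Ccl11, Ccl2, Ccl25, Ccl5, Ccl8, Cxcl10, Cxcl14, Cxcl2 and Cxcl9) against 6.16%, and 0 higher against 3.92%. Within these glia, SGCs had 1 of 6 members lower (Cxcl14) against 5.21% and 0 higher against 3.65%, and non-myelinating SCs 4 of 9 (Ccl11, Ccl2, Cxcl10 and Cxcl14) against 8.96% and 0 higher against 6.34%. Without interferon-led glia, SGCs and non-myelinating SCs together had 4 of 12 lower (Ccl11, Ccl2, Cxcl14 and Cxcl2). For the counts without interferon-led clusters, and for those without the cell with most UMIs, no share of all genes is at hand. Neither is read as a result about the members. In FBs 6 of 12 were lower (Ccl2, Ccl7, Ccl9, Cxcl10, Cxcl2 and Cxcl9) against 7.22%, and 0 higher against 6.58%.

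In neurons 8 of 23 members were lower (Ccl3, Ccl4, Ccl5, Ccl8, Ccl9, Cxcl10, Cxcl2 and Cxcl3) against 4.52%, and 0 higher against 4.50%. Most of these are the macrophage and interferon-linked ligands listed above, at under 15 CPM in neurons, while the ligands that neurons held most of, Ccl2 and Ccl27a, were at ratios near 0. In ECs 3 of 7 were lower (Ccl2, Cxcl10 and Cxcl9) against 10.6%, and 0 higher against 6.17%. In myelinating SCs 3 of 14 were lower (Ccl4, Cxcl14 and Cxcl16) against 5.47%, and 0 higher against 4.31%. Mural cells had 2 of 6 lower (Cxcl10 and Cxcl9) against 16.6% and 0 higher against 9.19%, and neutrophil-like cells 1 of 4 lower (Ccl4) against 14.4% and 0 higher against 11.2%. The unnamed immune cells went the other way, with 0 of 13 lower against 16.8% and 7 higher (Ccl3, Ccl4, Ccl6, Ccl7, Cxcl1, Cxcl10 and Cxcl2) against 9.25%, and T or NK lymphocyte-like cells had 5 of 9 lower (Ccl1, Ccl3, Ccl4, Cxcl13 and Xcl1) against 15.4% and 2 higher (Ccl6 and Cxcl10) against 9.86%. These shares carry no test, since members are not replicates of a condition. In T or NK lymphocyte-like cells Ccl1, Ccl3, Cxcl13 and Xcl1 each had most of their control UMIs in 1 cell. Those calls are therefore not read as a fall across that class.

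**Figure D5:**
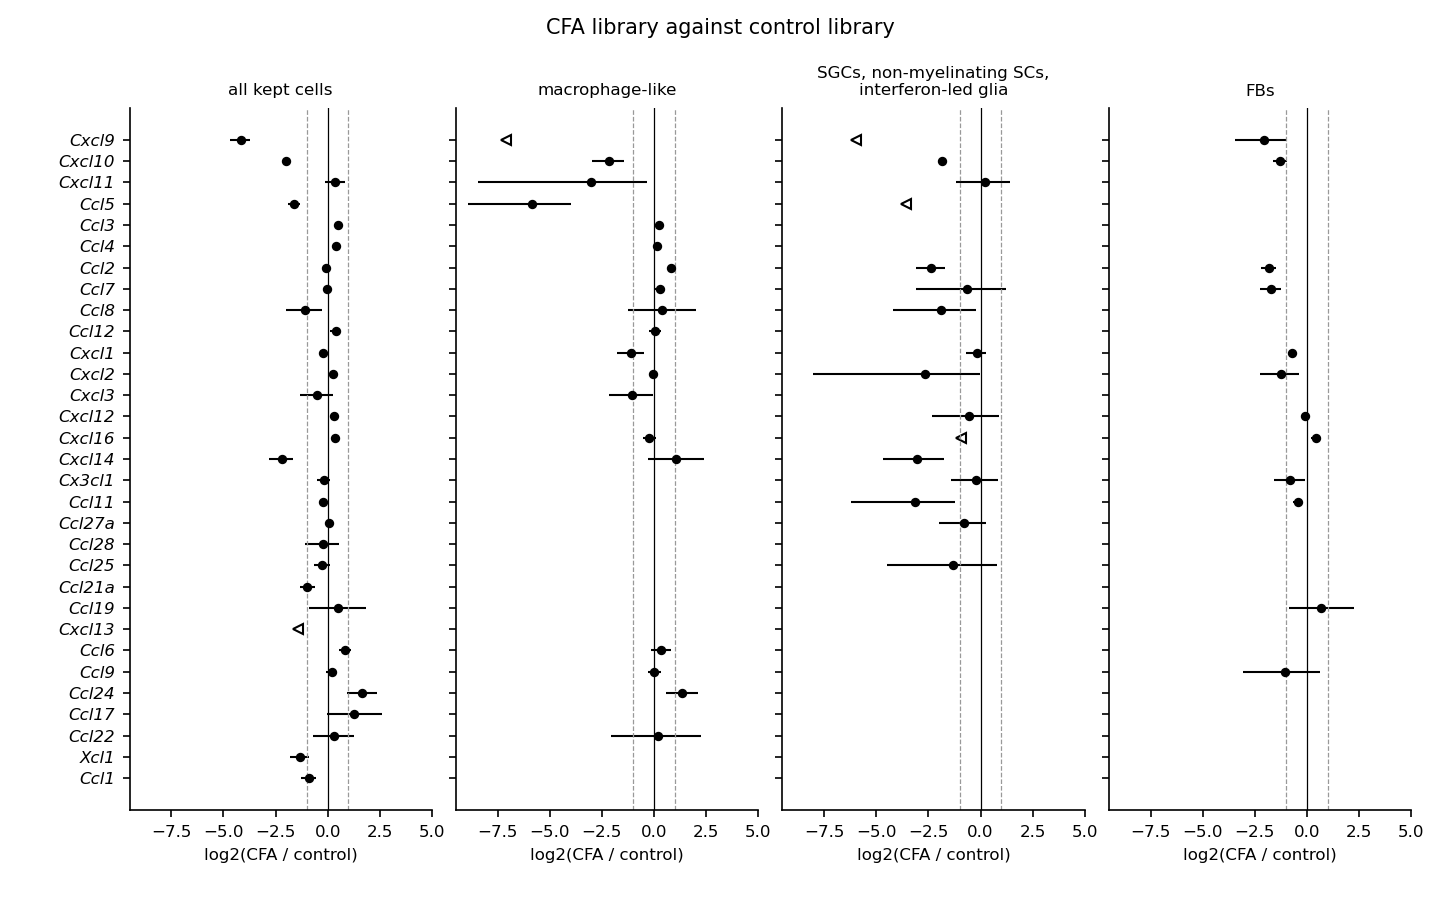
Log2 ratio of CFA over control levels for each member with at least 10 UMIs over both libraries in all kept cells, macrophage-like cells, pooled glia and FBs, with 95% exact binomial intervals. Open triangles are bounds where CFA had 0 UMIs, and dashed lines mark 2-fold. Cxcl9 and Cxcl10 lie left of the line in all 4 panels, and Ccl2 lies right of 0 in macrophage-like cells and left of it in pooled glia and FBs.

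By receptor, the summed CXCR3 ligands were at 163.8 CPM in control and 37.7 in CFA over all kept cells, the CCR2 ligands at 118.9 and 115.0, the CXCR2 ligands at 93.6 and 97.2, and the homeostatic or tissue ligands at 99.6 and 101.7. Of these sums, only that of the CXCR3 ligands differed by over 2-fold. Without the interferon-led clusters Cxcl10 was at 66.4 and 32.8 CPM, Cxcl9 at 5.34 and 1.74 and Cxcl11 at 1.92 and 3.01. The difference of over 2-fold in the sum is therefore not read as holding without those clusters. Of 23 chemokine receptor genes, 17 had at least 10 UMIs, with 2 lower and 1 higher in CFA and a median log2 ratio of -0.06. Cxcr3 itself was rare, with 12 of 17 control and 2 of 5 CFA UMIs in T or NK lymphocyte-like cells. Cxcr2 was highest in neutrophil-like cells, at 487 CPM in control and 1337 in CFA, and Ccr2 in the unnamed immune cells at 328 and 927. Cx3cr1 was at 555 and 1492 CPM in macrophage-like cells, where the share of P2ry12-led cells was 29 of 197 in control and 46 of 151 in CFA.

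The interferon-induced list had 13 of 28 genes lower and 0 higher over all kept cells, at a median log2 ratio of -0.89, 23 of 27 lower in macrophage-like cells at -2.24, and 25 of 27 lower in the pooled glia at -2.22, but 3 of 25 in FBs at -0.36. The glial value includes the 359 control and 15 CFA interferon-led cells: SGCs alone had 1 of 23 lower at -0.14 and non-myelinating SCs 6 of 25 at -0.71. Without the interferon-led clusters, 9 of 21 were lower and 1 higher in macrophage-like cells at -0.60, and 4 of 28 lower and 1 higher over all kept cells at -0.33. Of 9 inflammatory NF-kB targets such as Nfkbia and Il1b, 1 was lower and 1 higher over all kept cells, at a median of -0.10. In the pooled glia 4 of 6 were lower and 0 higher at -1.42, and 2 of 6 lower at -0.23 without interferon-led glia, while macrophage-like cells had 1 lower and 1 higher of 8 at 0.11. Of 8 immediate early genes 0 passed 2-fold in either direction, at 0.21. Of 6 interferon and Il12 family genes, 4 had at least 10 UMIs, with 1 lower and 1 higher. The immediate early genes summed to 7864 and 9022 CPM in macrophage-like cells of the 2 libraries, beside the Ccl3, Ccl4 and Cxcl2 levels there, and their part in those levels was not tested.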

How the data were processed

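Right TGs of 1 control and 1 CFA library were profiled by single-cell RNA-seq. The authors deposited UMI counts per gene and cell, not normalized. The submitters' processing notes name GRCm38 and fastp, and the counting settings are not given in the sources used here. The members, lists and alternatives were chosen with earlier results of these data known. Every member was described, those with at least 10 counts over both libraries by class and those below by their counts.

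Cells were kept from 150 detected genes upward and up to 25% of mitochondrial counts. They were clustered with Seurat 5.3.0 in R 4.3.3 on 2000 variable genes, 20 principal components and resolution 0.8 (1.0 for immune and neuron sub-clusters), leaving out chemokine ligands and receptors, and named where at least 3 markers fitted. Neuron subtypes follow the study's names. PEP2 here is a cluster of 12 control and 11 CFA cells led by Nppb and Sst. Counts were summed per class in Python 3.11.15 (pandas 2.3.3, scipy 1.17.1), with exact Poisson intervals for CPM, exact Clopper-Pearson intervals for shares and exact conditional binomial intervals for ratios, all at 95%. Where a group had 0 counts, the floor was 3 counts per library. Doublets were sought with Scrublet in scanpy 1.11.5. The ratio interval and the 2-fold calls were tried on simulated Poisson counts, which lack the gathering of UMIs in single cells seen here. Clustering, naming and thinning were not simulated. Sequences came from the RefSeq promoter table, in which 27 member genes had an entry. Column totals ran from 22096268 (CFA) to 48916096 (control) deposited UMIs.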

Additional observations from a re-analysis of the deposited data

Results flagged for a closer look

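4 members with at least 100 UMIs in the classes compared had log2 ratios of CFA over control on opposite sides of 0 in different classes. With 1 library per condition the difference between classes was not tested. Ccl2 was at 0.82 in macrophage-like cells, -2.36 in pooled SGCs, non-myelinating SCs and interferon-led glia (-1.41 without the last), and -1.82 in FBs. Ccl7 was at 0.31 in macrophage-like cells, a sign that turned without the Ly6i-led cluster, -0.97 in neurons and -1.73 in FBs. Within the macrophage-like clusters that both libraries held, its ratios lay above 0, with an interval that held 0 in the Cd163-led one. Cxcl1 was at 0.85 in neurons, where 23 of 93 CFA UMIs came from 1 cell, -1.11 in macrophage-like cells, -0.73 in FBs and -0.68 in ECs. Ccl3 was at 0.25 in macrophage-like cells, a sign that turned without the Ly6i-led cluster, and -3.54 in T or NK lymphocyte-like cells, where 95 of 119 control UMIs came from 1 cell.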

How the results depend on the processing

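Of 263 values recomputed under an alternative, 197 stayed within their counting interval or within 1.5 times the main count and 66 moved further. A call can change sign: Xcl1, called lower over all kept cells, turned to 0.31 (-0.22 to 0.83) without the cell with most of its UMIs. The share of control Cxcl10 in interferon-led glia (46.3%) was 43.4% with no mitochondrial limit, 43.9% with no gene left out of clustering, 20.7% with the interferon-induced list left out as well and 40.8% after thinning. The share of control SGCs with a Cxcl10 UMI after thinning (16.5%) was 28.9% under a stricter cell filter, 21.4% with 4000 variable genes and 20.4% with the interferon-induced list left out. With at least 50 counts, 1 member was higher in CFA, and at 4-fold 2 were lower and 0 higher. No share of all genes is at hand for these settings, so these counts are not read further. Without the cell with most UMIs of each member, chosen after seeing the data, 4 were lower and 1 higher, against 7 and 2. For this alternative too no share of all genes is at hand. Over all alternatives the log2 ratio in all kept cells ran from -2.12 to -1.02 for Cxcl10, from -6.02 to -1.62 for Cxcl9 and from -1.61 to -0.98 for Ccl5. The ends nearest 0 come from leaving out the interferon-led clusters, an alternative chosen after seeing the data. With class levels averaged over the same mix of classes, also chosen after seeing the data, the ratios were -1.77, -4.23 and -1.47. In macrophage-like cells Ccl3 ran from -0.17 to 0.44, Ccl4 from -0.30 to 0.28, Ccl12 from -0.39 to 0.35 and Cxcl2 from -0.48 to 0.26. The cause was not tested. No paired analysis was possible because each condition is 1 library. Differences between libraries cannot be told apart from differences between conditions, and no replicate could be left out.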
